A study of Mus musculus with 18 samples.

Results

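Ddx6, Ago2, Xrn1, Zfp36l1 and Zfp36, genes whose products destroy or silence messenger RNA, were followed in brains of mice lacking Aldh5a1, the succinate semialdehyde dehydrogenase of GABA catabolism. Every probe set annotated with 1 of these symbols alone was taken, which gave 7 of the 12488 probe sets on the array: 3 for Ddx6 and 1 for each other gene. Groups were hippocampus, cerebellum and cortex of Aldh5a1-/- mice (KO, animals 3363, 3389 and 3403), and the same regions of wild-type mice (Wt in the labels, WT here, animals 3405, 3406 and 3396). Total RNA of each animal and region went on 1 Affymetrix mouse array, so there were 3 arrays in each of 6 groups and 18 in all. Age, sex and strain are not given in the sources used here. The genes were picked with their KO and WT values in these regions, and the spread of WT cerebellum, already known. Their KO minus WT differences are therefore a description, and nothing is supported with them.

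Most mRNAs are destroyed after their poly(A) tail is shortened: the cap is removed and the exposed 5′ end is digested. Ddx6 (p54/RCK) is a DEAD-box RNA helicase that links deadenylation and translational repression to decapping, and a core protein of cytoplasmic P-bodies. Xrn1 is the cytoplasmic 5′ to 3′ exonuclease that digests decapped RNA. Ago2 is the Argonaute protein that binds microRNAs and small interfering RNAs and can itself cut a matching target. Zfp36 (tristetraprolin) and Zfp36l1 (BRF1, TIS11b) are zinc-finger proteins that bind AU-rich elements of short-lived mRNAs and recruit the deadenylases, and Zfp36 is itself induced rapidly by growth factors and inflammatory signals. In neurons, silenced mRNAs are also carried in granules that contain Ddx6 and Argonaute proteins.

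The genes lie at chr9:44602983-44640731 (Ddx6), chr15:73101625-73184947 (Ago2), chr9:95954750-96057806 (Xrn1), chr12:80107760-80113013 (Zfp36l1) and chr7:28376784-28379228 (Zfp36) on the mouse build GRCm38.p6. RefSeq promoter sequence of that build was available for 3 of the 5 genes, Zfp36, Zfp36l1 and Xrn1. The reference used held no promoter entry for Ddx6 or Ago2. The 250 bases before the annotated start are shown 5′ to 3′ on the gene's strand. They span chr7:28379229-28379478 on the minus strand for Zfp36, chr9:95954510-95954759 on the plus strand for Xrn1 and chr12:80113014-80113263 on the minus strand for Zfp36l1. Capitals mark matches to a searched motif. The last bases of the Xrn1 window lie within the span of the gene given above, whose annotated limits begin upstream of the start used for the promoter.
Zfp36: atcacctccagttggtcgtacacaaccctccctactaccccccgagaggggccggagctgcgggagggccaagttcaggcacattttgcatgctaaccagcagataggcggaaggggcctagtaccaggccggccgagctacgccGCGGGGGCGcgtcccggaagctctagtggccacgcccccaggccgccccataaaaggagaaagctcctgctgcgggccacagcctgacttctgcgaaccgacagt
Zfp36l1: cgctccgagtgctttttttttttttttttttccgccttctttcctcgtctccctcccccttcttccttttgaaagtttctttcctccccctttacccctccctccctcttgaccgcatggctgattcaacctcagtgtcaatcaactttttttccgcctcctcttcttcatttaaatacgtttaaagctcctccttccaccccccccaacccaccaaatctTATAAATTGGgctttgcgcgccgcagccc
Xrn1: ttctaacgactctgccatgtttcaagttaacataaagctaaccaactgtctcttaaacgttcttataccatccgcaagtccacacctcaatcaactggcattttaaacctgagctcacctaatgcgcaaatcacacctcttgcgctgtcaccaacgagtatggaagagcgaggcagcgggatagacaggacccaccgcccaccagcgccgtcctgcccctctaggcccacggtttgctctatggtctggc

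Searched on both strands were GCGGGGGCG (the site of the Egr immediate early factors), TATAAA (the core element called the TATA box), TGACGTCA (the full cAMP response element), GGGGCGGGG (an Sp1-type GC box) and the CCAAT box. The Zfp36 window held GCGGGGGCG once, at -105 to -97 from the start, a motif found in 2.57% of 32851 RefSeq promoter windows of the same length. The Zfp36l1 window held the TATA box motif at -29 to -24, found in 12.4% of windows, and the CCAAT box on the opposite strand at -24 to -20, found in 33.8%. These matches overlap by 1 base and are capitalised as a single run. TGACGTCA was in 1.55% of windows and GGGGCGGGG in 10.4%, and none of these 3 held either. The matches describe the letters of these windows only.

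Each array gave a scaled intensity per probe set, called signal here and already scaled by the authors to a common trimmed mean. The median signal lay between 53.5 and 64.8. For log2 differences a floor of 9.46 was set, the 20th percentile of the whole table, and signals are printed as deposited. All 7 probe sets were among the 8382 kept for testing. The sample titles and descriptions name the region, while the source field gives hippocampus on all samples; 18 of 18 arrays correlated best with arrays of the named region. Summed signal of 7 cerebellar neuron markers was 14260 to 14550 in KO cerebellum and 13590 to 15020 in WT cerebellum, against 824 to 1114 in the other regions. No probe set carried Aldh5a1 as its symbol, so genotype rests on the labels. The 3 samples of a group are separate animals.

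One WT array stood apart on these probe sets. In WT cerebellum the array of animal 3405 read at least 1 log2 unit above both other WT arrays on 4 of the 7 probe sets, against 46 of 8382 kept probe sets, or 0.549%. The 4 were Ago2, Xrn1 and Ddx6 on 93964_s_at and 93965_r_at, which were designed on the same record. Because the genes were picked with the spread of WT cerebellum known, this excess follows from the choice and is only a description. The 18 arrays each had 22 to 99 probe sets at least 1 log2 unit above both replicates. Across all kept probe sets the array least like its WT cerebellum replicates was that of animal 3396, not 3405. The 3405 array correlated with the others at r = 0.968 (3406) and 0.955 (3396), the latter the lowest r within any group. Between 3396 and 3406 r was 0.960. The 3396 array also had 99 probe sets at least 1 log2 unit above both replicates, against 46 for 3405. The 3405 array was the lowest WT cerebellum array for 7 of 8 microglia markers and 4 of 5 meningeal fibroblast markers, against 3051 of 8382 kept probe sets. It was lowest for 6 of 10 endothelial, 4 of 8 astrocyte, 4 of 6 oligodendrocyte and 1 of 7 cerebellar neuron markers. Being lowest takes no account of the gap. Summed microglia signal was 852 and 890 for animals 3405 and 3406, close to each other, and 1109 for animal 3396. The log2 differences in cerebellum are therefore given below with and without animal 3405.

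Ddx6 read high on all KO cerebellum arrays and on the 3405 array, and low on the other WT cerebellum arrays. On probe set 93964_s_at its cerebellar signal was 275, 219 and 281 in KO animals 3363, 3389 and 3403, against 180.0, 51.0 and 42.6 in WT animals 3405, 3406 and 3396. The genotypes did not overlap, and the WT arrays covered a 4.22-fold range. The log2 difference was 1.81 ± 0.39 (limma's SE), a 3.51-fold higher geometric mean in KO. It was 0.51 against the 3405 array alone and 2.46 against the mean of the other WT arrays. For KO minus WT, limma's SE pools the spread of all 6 groups, so a probe set has the same SE in every region. It is not the spread of the region it stands beside. On this probe set the SD of log2 signal was 1.13 in WT cerebellum, 0.20 in KO cerebellum and 0.11 in KO cortex.

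Probe set 96731_at, designed on another Ddx6 sequence record, gave a smaller difference of the same direction. Its cerebellar signal was 364, 331 and 349 in KO, against 299, 184 and 155 in WT in the same order of animals. The genotypes did not overlap, with a log2 difference of 0.77 ± 0.19, and 1.04 when the 3405 array was left out. On 93965_r_at, designed on the same record as 93964_s_at, cerebellar signal was 76.0, 85.9 and 84.2 in KO and 77.8, 35.2 and 36.0 in WT. Here the 3405 array lay inside the KO range, so the genotypes overlapped. The log2 difference was 0.83 ± 0.31, and 1.20 without animal 3405. An s suffix marks probes that can match more than 1 transcript, and an r suffix marks probes picked under relaxed rules.

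In the forebrain Ddx6 overlapped between the genotypes on all 3 probe sets. Hippocampal signal of 93964_s_at was 68.2, 114 and 51.4 in KO and 104, 159 and 116 in WT. Its log2 difference was -0.76 ± 0.39, so only KO animal 3389 reached into the WT range. In cortex the same probe set read 143, 159 and 139 in KO against 91.0, 149 and 105 in WT, a log2 difference of 0.38 ± 0.39. The other Ddx6 probe sets differed by -0.14 ± 0.19 (96731_at) and -0.09 ± 0.31 (93965_r_at) in hippocampus and by 0.38 ± 0.19 and -0.09 ± 0.31 in cortex. Thus hippocampal differences were below 0 on 3 of 3 Ddx6 probe sets, cerebellar ones above 0 on 3 of 3, and cortical ones mixed. The hippocampal differences of 96731_at and 93965_r_at, and the cortical one of 93965_r_at, were smaller than their SE. The probe sets read 1 gene on the same arrays and are not replicates.

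Xrn1, the exonuclease that acts after decapping, was the one member whose signal was under the floor in a whole group. Probe set 98283_at read 3.09, 9.40 and 2.41 in KO hippocampus, all under the floor of 9.46, against 25.5, 24.1 and 19.5 in WT hippocampus. Its level in KO hippocampus is therefore only bounded, at least 2.42-fold lower than in WT. In cerebellum it read 65.7, 72.2 and 81.2 in KO and 63.7, 19.6 and 13.4 in WT. The genotypes lay apart there only narrowly, because the 3405 array was just under the lowest KO array. The log2 difference was 1.51 ± 0.39 over all WT arrays, 0.19 against the 3405 array and 2.17 against the other WT arrays. In cortex Xrn1 read 95.6, 70.8 and 108 in KO and 41.9, 59.1 and 66.2 in WT, a log2 difference of 0.72 ± 0.39 without overlap.

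Ago2, the slicing Argonaute, followed the same order of cerebellum arrays as Ddx6 on 93964_s_at. Probe set 103994_at read 329, 317 and 352 in KO cerebellum and 303, 119.9 and 58.1 in WT cerebellum. KO arrays covered a 1.11-fold range and WT arrays a 5.21-fold range, and the genotypes lay apart by the gap between 317 and 303. The log2 difference was 1.37 ± 0.35, with 0.13 against the 3405 array and 1.99 against the other WT arrays. Leaving out animal 3396, the lowest WT array, gave 0.80.

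The hippocampal difference of Ago2 ran the other way. There it read 171, 241 and 159.8 in KO and 243, 280.4 and 289 in WT, with the highest KO array just under the lowest WT array. The log2 difference was -0.53 ± 0.35. Cortex gave 260.5, 255 and 244 in KO and 242, 215 and 197 in WT, a log2 difference of 0.22 ± 0.35. Again the groups did not overlap, although the nearest arrays differed by only 244 against 242.

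**Figure D1:**
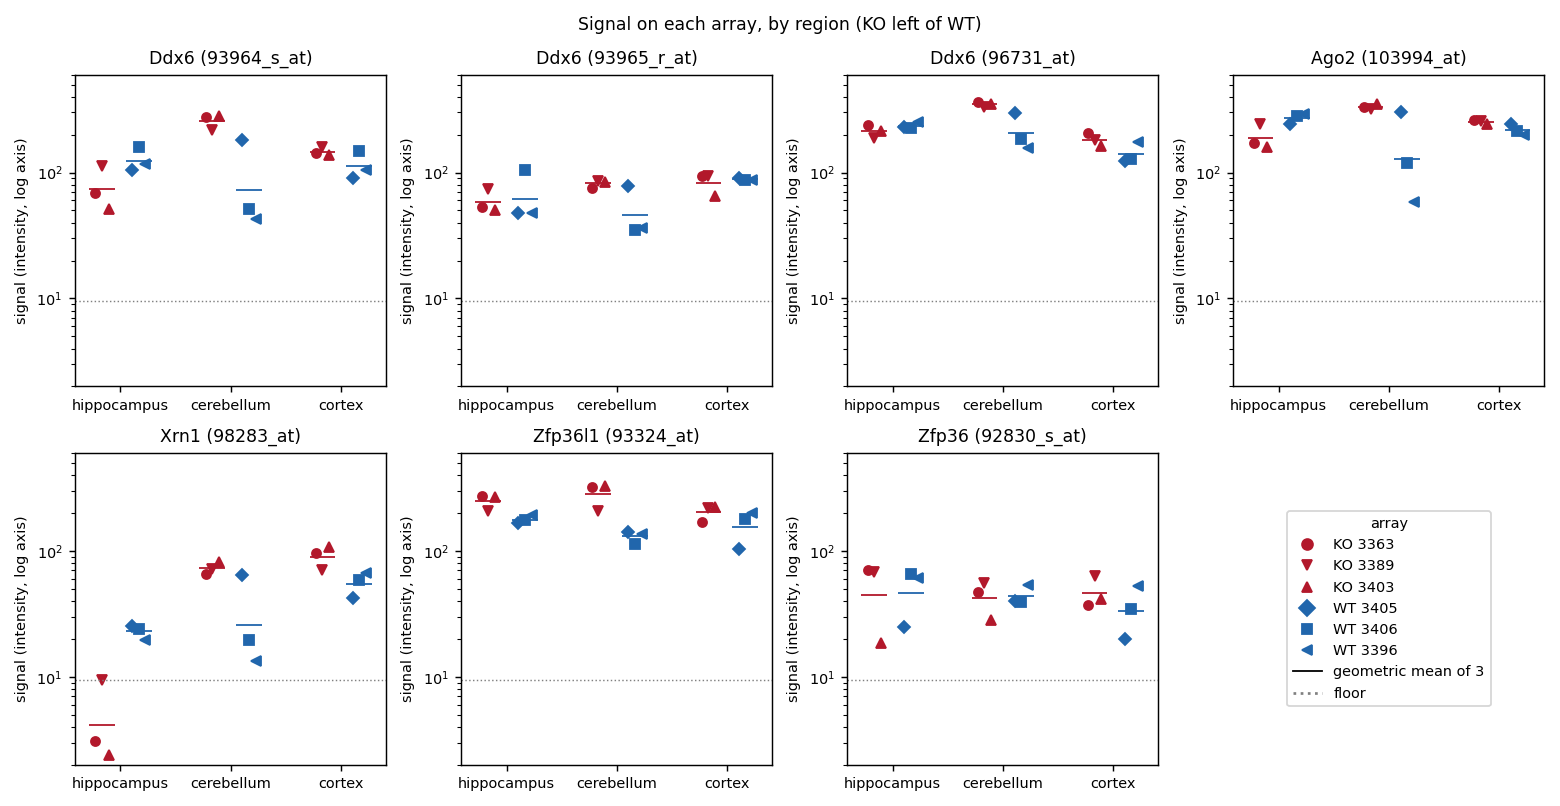
Signal (intensity, log axis) of each of the 7 probe sets on every array, KO in red left of WT in blue, with 1 symbol shape per animal, a line at the geometric mean of 3 arrays and a dotted line at the floor of 9.46. In cerebellum the WT diamond (animal 3405) sits near the KO arrays for Ddx6, Ago2 and Xrn1, but with the other WT arrays for Zfp36l1.

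Zfp36l1, an AU-rich element binding protein, differed from these genes in that WT cerebellum was uniform. Probe set 93324_at read 321, 209 and 328 in KO cerebellum and 140.5, 114 and 137 in WT cerebellum. Every KO array lay above every WT array, with a log2 difference of 1.11 ± 0.22, a 2.16-fold higher geometric mean in KO. The 3405 array was no exception: the KO mean lay 0.996 above it and 1.17 above the other WT arrays. In hippocampus the signal was 270.2, 209 and 267 in KO and 165, 176 and 191 in WT, again without overlap, a log2 difference of 0.48 ± 0.22. Cortex read 169, 217 and 224 in KO and 103, 179.9 and 201 in WT, which overlapped, with a log2 difference of 0.38 ± 0.22.

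Zfp36, the family's founding member, overlapped between genotypes in every region. Probe set 92830_s_at read 46.9, 55.9 and 28.1 in KO cerebellum against 39.9, 39.3 and 53.4 in WT cerebellum, a log2 difference of -0.06 ± 0.48, and -0.13 without animal 3405. Its hippocampal signal was 71.0, 68.2 and 18.7 in KO and 24.9, 66.0 and 61.3 in WT. One low array in each genotype, KO 3403 and WT 3405, set that spread, and the log2 difference was -0.05. In cortex it read 37.2, 62.8 and 41.8 in KO and 20.04, 34.3 and 52.2 in WT, a log2 difference of 0.48. Zfp36l2, another AU-rich element binding protein of the family, differed by 0.26, 0.52 and 0.42 in hippocampus, cerebellum and cortex on the log2 scale, and none of these passed the test.

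Across the 7 probe sets, KO and WT cerebellum did not overlap for 5, all higher in KO, while 7.48% of kept probe sets were higher in KO without overlap. In hippocampus Ago2 and Xrn1 were lower in KO without overlap (background 6.93%) and Zfp36l1 higher (background 10.3%). In cortex Ago2 and Xrn1 were higher without overlap (background 7.05%). With limma's test and Benjamini-Hochberg adjustment over all kept probe sets at a threshold of 0.05, 0 of 7 were called in any region. The shares of all kept probe sets called were 0.119% in hippocampus, 0.0358% in cerebellum and 0.286% in cortex. Because the genes were chosen on these contrasts, nothing is read from these counts.

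How many members were called in cerebellum changed with 1 animal. The adjusted p of the 7 probe sets ran from 0.0668 to 0.978 over all arrays. Leaving out WT animal 3405 gave 5 of 7 called, with 121 of 8382 probe sets (1.44%) called overall. Leaving out its cerebellum array alone, an alternative chosen after seeing the data, gave 6 of 7 with 164 (1.96%) overall. Without WT animal 3406 or 3396 the members called were 0, with 0 and 12 probe sets called overall. With each KO animal left out in turn 0 members were called. These values describe the weight of the arrays and are no test of the genotype.

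**Figure D2:**
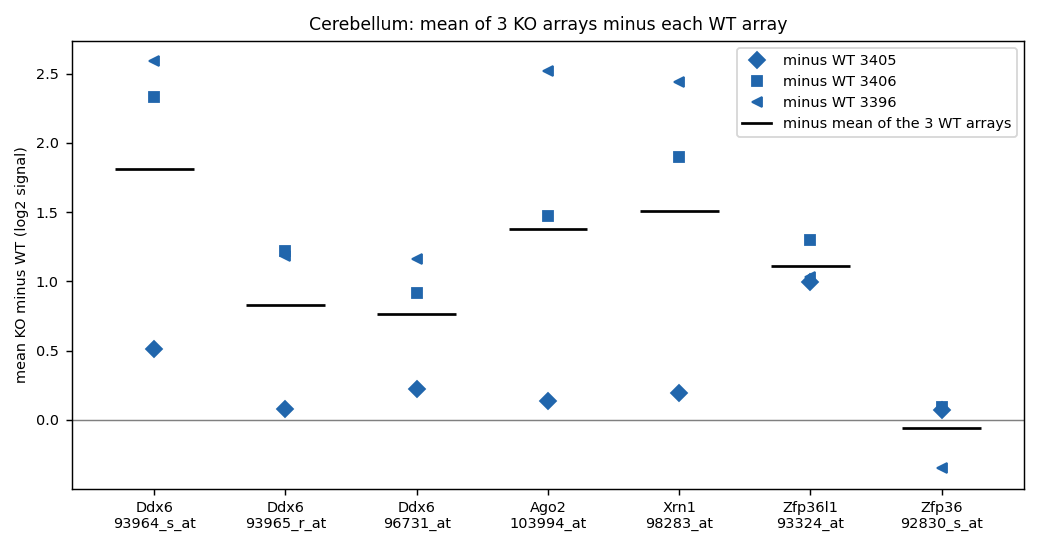
Mean log2 signal of the 3 KO cerebellum arrays minus each single WT cerebellum array (symbols) and minus the mean of the 3 WT arrays (bars), for the 7 probe sets. For Ago2 the difference is 0.13 against animal 3405 and 2.52 against animal 3396, whereas for Zfp36l1 the 3 values lie between 0.996 and 1.30.

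The spread within WT cerebellum separates the genes. The SD of the 3 log2 values was 1.19 for Ago2, 1.17 for Xrn1 and 1.13 for Ddx6 on 93964_s_at, above that of 99.4%, 99.3% and 99.1% of kept probe sets. It was 0.65 and 0.49 for the other Ddx6 probe sets, at percentiles 94.4 and 88.7. For Zfp36 it was 0.25 and for Zfp36l1 0.17, at percentiles 58.4 and 35.5, while the median over kept probe sets was 0.22. Set beside KO minus WT, the difference was 1.15 times this SD for Ago2, 1.29 times for Xrn1 and 1.60 times for Ddx6 on 93964_s_at, and 6.69 times for Zfp36l1. The spread was part of how the genes were chosen and is given without a test.

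**Figure D3:**
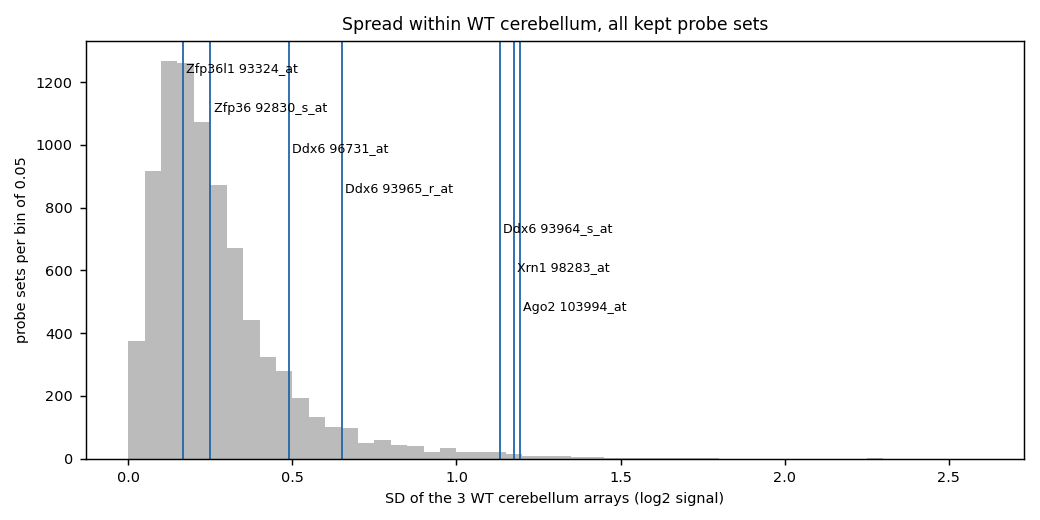
Histogram of the SD of log2 signal over the 3 WT cerebellum arrays for 8382 kept probe sets, with lines at the 7 probe sets described. Ddx6 (93964_s_at), Xrn1 and Ago2 lie at 1.13 to 1.19 in the upper tail, while Zfp36l1 lies at 0.17 near the peak.

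Markers of other cell types were read beside these differences. Choroid plexus markers were higher in KO cerebellum for 4 of 4 genes (Ttr, Kl, Folr1, Slc4a5), with a median log2 difference of 1.74 against 0.03 over all kept probe sets, and none passed the test. Their summed signal was 1290.0, 357 and 1512 in KO cerebellum and 57.6, 113 and 1298 in WT cerebellum. The 3405 array was thus the lowest by summed signal, but it was the lowest WT cerebellum array for only 2 of the 4 genes. Its mean log2 over these genes was 3.91, against 4.08 for animal 3406. WT animal 3396, the lowest for Ago2 and Xrn1, was close to KO. Endothelial markers summed to 1384 to 1578 in KO and 1363 to 1510 in WT cerebellum, and meningeal fibroblast markers to 827 to 1061 and 751 to 1254. The 3′ to 5′ signal ratio of Gapdh, a sign of RNA integrity, was 0.795 to 0.844 in KO and 0.788 to 0.801 in WT cerebellum. The part of these measures in the results was not tested.

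Oligodendrocyte and microglia markers moved with genotype in the forebrain, and the Gapdh ratio did so in cortex alone. Oligodendrocyte markers were lower in KO for 6 of 6 genes in hippocampus (median log2 difference -1.06, 2 called) and in cortex (-1.11, 5 called). Their summed signal was 3911 to 5006 in KO hippocampus and 5810 to 8787 in WT hippocampus, and 3320 to 4194 in KO cortex and 6280 to 8082 in WT cortex. Microglia markers were above 0 for 8 of 8 genes in both regions, with medians of 0.27 in hippocampus and 0.26 in cortex, and none passed. These summed to 1926 to 2361 in KO and 1777 to 1800 in WT hippocampus, and to 1619 to 2313 in KO and 1656 to 1762 in WT cortex. In cortex the Gapdh ratio was 0.797 to 0.812 in KO and 0.885 to 0.924 in WT, without overlap. In hippocampus it overlapped, at 0.797 to 0.904 in KO and 0.812 to 0.890 in WT. The same ratio of actin overlapped in cortex, at 1.64 to 1.88 in KO and 1.69 to 1.94 in WT. Both cortical ranges of actin lay above its range of 1.09 to 1.46 in the other regions. The part of these measures in the hippocampal and cortical differences of Xrn1, Ago2, Zfp36l1 and Lsm2 was not tested. In tissue RNA, fewer cells of a type and less RNA per cell cannot be told apart.

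Differences between regions of the same animals were tested within each genotype, with the animal as a block. They use the arrays on which the genes were chosen, so none of these contrasts is independent of that choice. Their adjusted p-values are those of the fit over all kept probe sets, and nothing is supported with them. Within KO brains 4 of 7 probe sets passed limma's moderated F test, against 49.8% of kept probe sets: Xrn1 (adjusted p = 5.34e-06), Ddx6 on 96731_at (0.000241) and 93964_s_at (0.000578), and Ago2 (0.00328). Ddx6 on 93965_r_at (0.0602), Zfp36l1 (0.0866) and Zfp36 (0.931) did not pass.

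Xrn1 had the steepest regional profile in KO. KO cerebellum and cortex were at least 7.69-fold (adjusted p = 7.92e-06) and at least 9.51-fold (adjusted p = 4.64e-05) above KO hippocampus, in limma's contrasts. All 3 KO hippocampus values, deposited as 2.41 to 9.40, had been set to the floor, so their SD was 0. The SE and p of Xrn1 in every fit with these arrays, the F test included, rest partly on that replacement. Cerebellum and cortex of KO did not differ beyond their spread (log2 difference -0.31 ± 0.23, adjusted p = 0.306). Ddx6 on 93964_s_at ran in the order cerebellum, cortex, hippocampus, with 1.80 ± 0.23 log2 units of cerebellum over hippocampus (adjusted p = 0.00024). Cerebellum stood 0.81 ± 0.23 above cortex (adjusted p = 0.0205) and hippocampus fell by 0.997 relative to cortex (adjusted p = 0.0196).

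For Ddx6 on 96731_at, KO cerebellum was 0.70 ± 0.11 above hippocampus and 0.93 ± 0.11 above cortex on the log2 scale, with adjusted p of 0.00072 and 0.000128. Hippocampus and cortex did not differ beyond their spread (0.23 ± 0.11, adjusted p = 0.195). Ago2 was 0.83 ± 0.14 higher in cerebellum than in hippocampus of KO brains (adjusted p = 0.0014), with cortex between them. Its limma contrasts with cortex just missed the threshold. They were 0.39 ± 0.14 for cerebellum minus cortex (adjusted p = 0.0512) and -0.43 ± 0.14 for hippocampus minus cortex (adjusted p = 0.0713). Zfp36l1 was 0.47 ± 0.17 higher in KO cerebellum than in KO cortex (adjusted p = 0.0448). Of kept probe sets, 41.6% passed between KO cerebellum and hippocampus, 40.9% between cerebellum and cortex and 15% between hippocampus and cortex.

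Between hippocampus and cortex, Xrn1 and Ddx6 on 93964_s_at passed in KO, both lower in hippocampus. In WT 0 of 7 passed this contrast, where 10.1% of kept probe sets did. The WT log2 difference of hippocampus minus cortex was -1.26 ± 0.46 for Xrn1 (adjusted p = 0.114) and 0.14 ± 0.42 for Ddx6 on 93964_s_at (adjusted p = 0.874).

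Within WT brains only Ddx6 on 96731_at passed the F test (adjusted p = 0.0469, background 39.4%), and 0 of 7 probe sets passed any single pair of regions. Of kept probe sets, 25.8% passed between WT cerebellum and hippocampus and 37.1% between WT cerebellum and cortex. The lowest pairwise adjusted p was 0.055, for Ago2, whose log2 level in WT cerebellum was 1.08 ± 0.37 below WT hippocampus. Its direction was opposite in KO. Leaving out WT animal 3405 brought Ddx6 on 93964_s_at (adjusted p = 0.00121), Ago2 (0.00301), Xrn1 (0.0112), Zfp36l1 (0.0362) and Ddx6 on 93965_r_at (0.039) past the F test, with 2248 of 8382 probe sets (26.8%) called in that fit. Without WT animal 3406 the members past it were 0, and without 3396 only 96731_at passed (0.0252). These are values of the weight of 1 animal and no test. Leaving out animal 3405 took 96731_at out of it (0.0651), as did leaving out animal 3406 (0.224). Zfp36 had no regional profile that passed in either genotype.

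The wider decay and silencing machinery was read from lists of 70 further genes on the array, of which 61 were kept. In hippocampus and cerebellum 0 of 61 passed KO minus WT, with 3 and 6 at an unadjusted p under 0.05, and in cortex 1 passed. The list medians were 0.01, 0.03 and -0.02 log2 units in hippocampus, cerebellum and cortex, against 0.02, 0.03 and 0.00 over all kept probe sets. The gene that passed was Lsm2, a subunit of the Lsm ring that binds deadenylated 3′ ends and promotes decapping. It averaged 14.7 ± 2.15 in KO cortex and 67.1 ± 29.5 in WT cortex (SD, n = 3 each), and fell by 2.08 ± 0.30 on the log2 scale (limma, adjusted p = 0.00251). It was not called without WT animal 3405 or when only the 6 cortex arrays were fitted.

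By list, 0 of 14 deadenylation genes and 0 of 2 nonsense-mediated decay genes passed KO minus WT in any region. The same held for 0 of 7 small RNA silencing genes and 0 of 18 RNA element binding genes. On the exosome list 0 of 8 passed, namely Exosc4, Exosc5, Exosc7, Exosc8, Skiv2l, Wdr61, Hbs1l and Pelo, not all of them exosome subunits. The decapping list had 0, 0 and 1 of 12. The lowest p in cerebellum were those of Elavl3, a neuronal RNA-stabilising protein (log2 difference -0.58 ± 0.19, adjusted p = 0.215), Cpeb2, a cytoplasmic polyadenylation factor (0.40 ± 0.13, adjusted p = 0.233), and Tnrc6a, the GW182 partner of Argonaute (0.46 ± 0.16, adjusted p = 0.252). None of these passed. Mov10, a helicase that associates with Argonaute, differed by 1.09 ± 0.45 log2 units without passing (adjusted p = 0.326). The median of 7 silencing genes besides Ago2 was -0.09 in hippocampus, -0.01 in cerebellum and -0.32 in cortex, where 5 of 7 lay below 0.

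**Figure D4:**
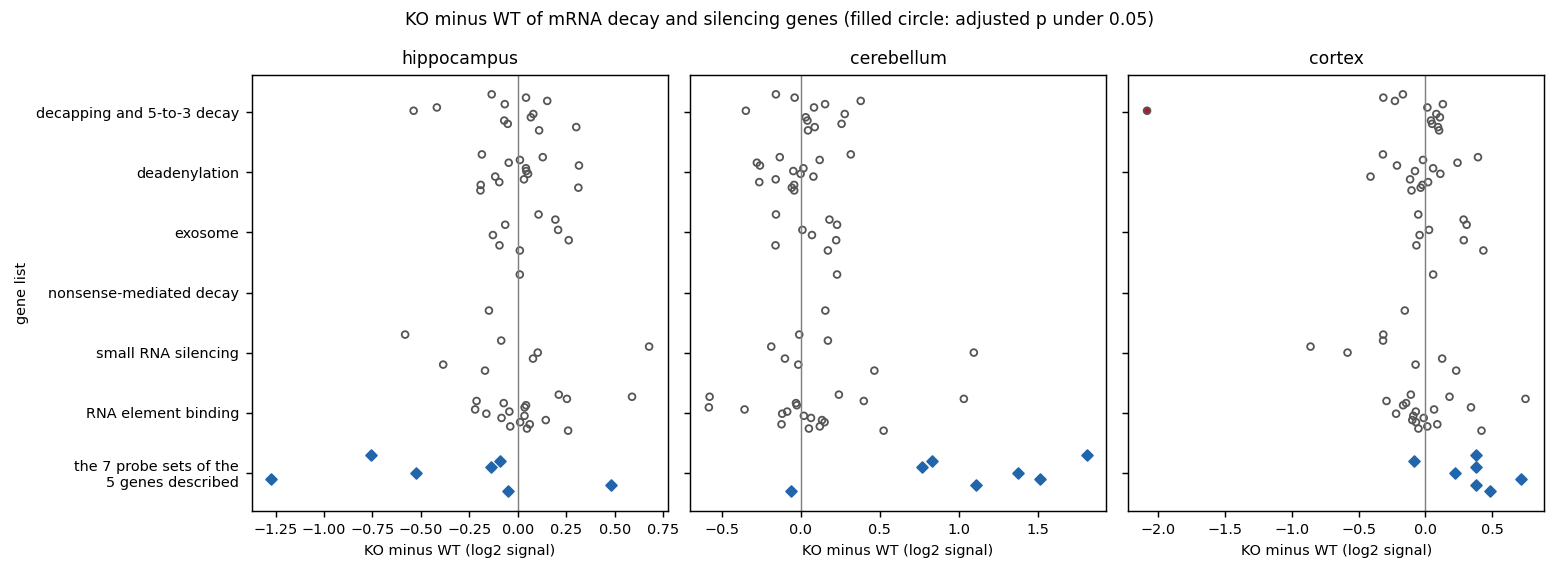
KO minus WT in log2 signal for the genes of each decay or silencing list (circles, 1 per gene, filled where the adjusted p was under 0.05) and for the 7 probe sets described (diamonds), in hippocampus, cerebellum and cortex on separate scales. The filled circle is Lsm2 in cortex at -2.08, and the diamonds of cerebellum reach 1.81.

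Between regions of 1 genotype many of these genes passed. Of the 61 genes, 35 (57.4%) passed the F test within KO brains and 23 (37.7%) within WT brains, beside 49.8% and 39.4% of kept probe sets. Btg1, which stimulates the Ccr4-Not deadenylase, averaged 861 ± 30.6 in KO cerebellum and 119.7 ± 15.8 in KO hippocampus, and 697 ± 111 and 135 ± 1.54 in the same regions of WT. Cerebellum was 7.23-fold higher in KO (adjusted p = 7.16e-08) and 5.11-fold higher in WT (adjusted p = 1.28e-05). Pan2, the catalytic subunit of the Pan2-Pan3 deadenylase, was 3.56-fold (adjusted p = 2.53e-05) and 3.21-fold (adjusted p = 0.000322) higher in cerebellum than hippocampus in KO and WT.

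Argonaute's partner Tnrc6a was 3.21-fold higher in KO cerebellum than in KO hippocampus (adjusted p = 8.84e-06) and 2.07-fold higher in WT (adjusted p = 0.00143). Its group means were 489 ± 61.6 and 152 ± 10.2 in KO, and 363 ± 99.9 and 171 ± 11.9 in WT. Tarbp2, a Dicer cofactor, was 2.69-fold higher in KO (adjusted p = 0.00116) and 2.09-fold higher in WT (adjusted p = 0.014). The RNA-stabilising protein Elavl2 went the other way, 3.59-fold lower in KO cerebellum than in KO hippocampus (adjusted p = 6.02e-05) and 3.42-fold lower in WT (adjusted p = 6.69e-05).

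Zfp36l2 fell by 0.74 ± 0.17 in WT cerebellum relative to WT hippocampus (adjusted p = 0.0101). In KO its log2 difference was -0.47 ± 0.23 (adjusted p = 0.127). Of 16 mRNAs on the array reported as targets of this family, such as Tnf, Vegfa and Ier3, 7 were kept and 0 passed KO minus WT. Their median was 0.23 in hippocampus, 0.12 in cerebellum and 0.15 in cortex, against 0.02, 0.03 and 0.00 over all kept probe sets. Of 13 immediate early genes on the array, the class Zfp36 belongs to by its induction, 12 were kept and 0 passed in any region.

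Whether KO minus WT differed between regions was tested by a genotype by region interaction, which called 4 of 8382 probe sets (0.0477%). The adjusted p was 0.192 for Xrn1, 0.228 for Ddx6 on 93964_s_at and 0.277 for Ago2. None of the 7 passed, and for these genes the values are a description. Leaving out WT animal 3405 gave 0.0167 for Xrn1, 0.0123 for Ddx6 on 93964_s_at and 0.0167 for Ago2, with 6 of 8382 probe sets (0.0716%) called. With each of the other 5 animals left out in turn, adjusted p was 0.231 to 0.505 for Xrn1, 0.401 to 0.616 for Ddx6 on 93964_s_at and 0.42 to 0.644 for Ago2. These too describe the weight of the animal.

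Within regions, signals of Ddx6, Ago2 and Xrn1 varied together over the arrays. After removal of each region's mean, Pearson r over 18 arrays was 0.93 between Ddx6 (93964_s_at) and Ago2, 0.88 between Ddx6 and Xrn1 and 0.867 between Ago2 and Xrn1. These points share the 6 animals, the scaling and the genotype, so r is a description. The genes were also chosen on values of these arrays. With region means left in, the same pairs gave 0.869, 0.726 and 0.544. The other Ddx6 probe sets then gave 0.699 (93965_r_at) and 0.504 (96731_at) with Ago2, and 0.624 and 0.122 with Xrn1. After removal of region means these gave 0.757 (93965_r_at) and 0.811 (96731_at) with Ago2, and 0.603 and 0.838 with Xrn1. Among themselves the Ddx6 probe sets gave 0.811 (93964_s_at with 93965_r_at), 0.79 (93964_s_at with 96731_at) and 0.59 (93965_r_at with 96731_at). Zfp36l1 had 0.663 with Ddx6 on 96731_at, 0.522 on 93964_s_at and 0.331 on 93965_r_at, 0.418 with Xrn1 and 0.396 with Ago2. Zfp36 had -0.01 to 0.169 with the other probe sets.

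By the same measure the genes most like Ago2 were Ddx6 (0.93), the sodium-calcium exchanger gene Slc8a1 (0.895) and Synrg (0.888). For Xrn1 they were the deubiquitinase gene Otud5 (0.913), Ddx6 (0.88) and Tmem131 (0.873). These genes were ranked on the same arrays, cerebellum included, so a like cerebellar pattern follows from the choice. Synrg had a cerebellar mean of 71.2 in KO and 69.6, 30.1 and 27.2 in WT animals 3405, 3406 and 3396. In the same order Slc8a1 had 278 in KO and 280, 184 and 162 in WT. Nearest to Ddx6 on 96731_at were Serpinb6a (0.865), the co-chaperone gene Dnajb6 (0.859) and the COPII coat gene Sec23a (0.857).

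Zfp36l1 was most like the interleukin 10 receptor gene Il10rb (0.934), the membrane linker gene Ezr (0.863) and the kinesin gene Kif1c (0.854). For Zfp36 the highest were Homer2 (0.805), Cyp7b1 (0.78) and Pcsk7 (0.773). Each ranking covered kept probe sets with 1 symbol over all 18 arrays, and no p is given.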

How the data were processed

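Values were the authors' deposited probe set intensity on a linear scale, scaled by the authors to a common 2% trimmed mean (150.07 to 150.08 on the 18 arrays). The program that produced them is not named in the labels or the table. From the 12488 probe sets 66 controls were removed, a floor was set at the 20th percentile of the whole table, and signals were converted to log2. Testing used the 8382 probe sets that exceeded the 40th percentile of at least 3 arrays, of which 7554 had 1 symbol and named 6249 genes. Of 10855 probe sets with 1 symbol, 10839 matched the reference table by gene ID.

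limma 3.58.1 (R 4.3.3, empirical Bayes with intensity trend) fitted 6 group means to all arrays for KO minus WT (12 residual degrees of freedom), and regions within a genotype with the animal as a fixed block (4 degrees of freedom). Tests were two-sided, with Benjamini-Hochberg adjustment over all kept probe sets and a threshold of 0.05. With 3 animals against 3, an exact permutation test cannot go below p = 0.1. The fits were tested on simulated data. The number of arrays limits the precision.

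Members and lists were chosen with earlier results of these data known. Named were all members, from each list up to 4 genes past the threshold or else the 2 of lowest p, and for each member's brightest probe set the 3 most correlated genes. Genes of the lists given for a comparison where that rule did not name them were chosen after their values were seen. Each animal gave 3 regions, which pairs its arrays per the labels, and the residual correlation within an animal had a median of 0.135 (-0.0836 to 0.195, lowest for animal 3405), against -0.0634 between animals of a genotype. Alternatives were median scaling or quantile normalization, 16 added in place of the floor or none, other filters, no trend, the animal block, the region's own arrays and each animal left out. Promoters are RefSeq, GRCm38.p6.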

Additional observations from a re-analysis of the deposited data

Results flagged for a closer look

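Ago2 differed between the genotypes in opposite directions in 2 regions, with no KO array inside the WT range in either. The log2 difference of KO minus WT was -0.53 in hippocampus and 1.37 in cerebellum, with 0.22 in cortex. Xrn1 did the same, at -1.28 in hippocampus, 1.51 in cerebellum and 0.72 in cortex. Its KO hippocampus arrays were all under the floor of 9.46, so its level there is only bounded, at least 2.42-fold lower than in WT. The interaction test of the difference itself did not pass for either gene over all kept probe sets (limma, adjusted p = 0.277 for Ago2 and 0.192 for Xrn1). Leaving out WT animal 3405 gave 0.0167 for both, with 6 of 8382 probe sets called. With each of the other 5 animals left out it was 0.42 to 0.644 for Ago2 and 0.231 to 0.505 for Xrn1. The genes were chosen on KO minus WT in these regions, so the values are a description and no test.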

How the results depend on the processing

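The counts of calls over all kept probe sets varied with the processing and the arrays used. Members called in cerebellum went from 0 of 7 to 5 without animal 3405 and 6 without its cerebellum array. Counts and members' values were judged by different rules, so their variation is not compared. KO minus WT in cerebellum had 3 calls, with 15 under median scaling, 5 without a filter, 9 with a 60th percentile filter, 1 without the intensity trend, 0 in the cerebellum's own 6 arrays, and 0 to 121 with an animal left out (121 without WT 3405). With 1 WT cerebellum array left out, chosen after seeing the data, it had 0 to 164, and the decay lists had 0 to 1 instead of 0. Hippocampus had 10 calls, 1 in its own 6 arrays and 3 to 22 with an animal left out. Cortex had 24, with 3 in its own arrays and 6 to 32 with an animal left out. The decay lists' call in cortex went to 0 in the region's own arrays and was 0 to 1 with an animal left out. For WT regions 3299 became 1596 to 2276 (lowest without 3406) and for KO regions 4175 became 2763 to 3019 with an animal left out. The decay lists had 11 instead of 23 calls between WT regions without a filter, 14 without the trend and 7 to 17 with an animal left out, and 21 to 24 instead of 35 between KO regions. The interaction had 4 calls, 2 without a filter, 0 without the trend and 0 to 6 with an animal left out. Fits with animals left out or on a region's own arrays hold fewer arrays, and the filters change how many probe sets were tested; for median scaling and the trend the cause was not tested. With the animal as a replicate block, KO minus WT had 11, 3 and 25 calls in hippocampus, cerebellum and cortex. Without the block, region tests had 3320 calls in WT, 3751 in KO and 4 in the interaction. The block changed no member's KO minus WT call. A difference was marked as reversed only if it had passed over all arrays. No member's KO minus WT difference had, so none could be marked. For Zfp36 the cerebellar log2 difference was -0.06 over all arrays and 0.08 without the WT cerebellum array of animal 3396. Among the members' region and interaction tests, 12 values passed only under an alternative and 4 no longer passed. Among their KO minus WT differences and WT cerebellum SDs, 12 values moved. A difference counted as moved beyond the probe set's pooled SD within groups, and an SD beyond a fixed fold change. KO minus WT calls were gained 12 times, all in cerebellum: 5 without animal 3405, 6 without its cerebellum array and 1 (Zfp36l1) with the 60th percentile filter. The WT cerebellum SD of Xrn1 was 0.76 with 16 added in place of the floor, and its hippocampal difference -2.48 with no floor.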
